A study of Mus musculus with 6 samples.

Results

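The immediate early response genes described here are Fos, Fosb, Jun, Junb, Egr1, Egr2, Atf3, Ier2, Dusp1 and Zfp36. They were taken by gene name from the gene table of the study, 10 of its 34745 genes, and all 10 were among the 12537 genes with enough counts to be tested. RNA-seq was performed on monocytic myeloid-derived suppressor cells (M-MDSCs), immature monocyte-like cells that restrain T cells, from bone marrow of C57BL/6 mice. There were 3 libraries from WT mice and 3 from Lyz-mTOR mice, whose floxed mTOR alleles are removed by a Cre under the lysozyme (Lyz) promoter, so that the deletion is meant for myeloid cells and other cells can still make mTOR. According to the study's methods, marrow cells of both groups were grown with GM-CSF and IL-6 and then sorted as CD11b+Ly6G-Ly6C high cells, while the sample labels speak of freshly sorted cells. WT mice were purchased C57BL/6 animals and the Lyz-mTOR mice were bred from donated lines, so loss of mTOR cannot be told apart from the Cre or the colony. The methods give 3 as the number per group without saying whether each library was made from its own mouse, and p-values then measure only the spread between these samples, which may be technical. The age of the mice is not given in the sources used here.

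Immediate early genes are switched on within minutes of a growth factor, cytokine, stress or handling signal, without new protein synthesis. MAP kinase cascades activate factors already in the nucleus, among them serum response factor with its partners, which binds CArG boxes, and CREB, which binds cAMP response elements (CREs). The first products are transcription factors of the AP-1 and EGR families, and the feedback products come with them: Dusp1, a phosphatase that switches MAP kinases off, and Zfp36 (tristetraprolin), which binds AU-rich elements in mRNAs and leads to their decay. In myeloid cells the same genes are known to respond both to cytokines and to tissue dissociation and cell sorting.

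The libraries held 12317507 to 14768126 gene counts, and all 3 WT libraries were deeper than all 3 mTOR-/- libraries, which the scaling to CPM (gene counts relative to library size, with edgeR's TMM factors) takes into account. Mtor itself did not separate the groups. It had 883, 983 and 908 counts in mTOR-/- replicates 1, 2 and 3 and 980, 875 and 929 in WT, a log2 fold change of 0.15 (95% interval -0.09 to 0.39, edgeR adjusted p = 0.442), so the directions below rest on the labels. A gene total can miss the loss of a few floxed exons. The paper reports that its own check found mTOR depleted in MDSCs. That check was made outside these libraries and was not analysed here. Lyz2, whose promoter drives the Cre, fell by 1.68 on the log2 scale (edgeR adjusted p = 0.00255). Marker lists of cell types moved as well. Markers are called higher or lower at an edgeR adjusted p below 0.05, where 2.18% of all tested genes rose and 1.87% fell. Summed mast cell and basophil markers were at 420 to 474 CPM in mTOR-/- libraries and 1239 to 1306 in WT, with 4 of 6 lower. Monocyte and M-MDSC markers were at 2060 to 2530 CPM against 3664 to 5289, with 2 of 6 lower (Lyz2, Ly6c2) and 1 higher (Csf1r). This sum includes Lyz2, the Cre driver locus, so it cannot be read as a measure of monocytic cells. Against the WT mean, mTOR-/- replicates 1, 2 and 3 had log2 values of -1.46, -1.86 and -1.75 for Lyz2. They were -1.26, -1.04 and -0.74 for Ly6c2, and 0.47, 0.50 and 0.51 for Csf1r. Dendritic cell markers were at 193 to 264 CPM against 66.9 to 152, with 1 of 4 tested higher (Ccr7) and Siglech at 0. Neutrophil markers were at 2381 to 2706 CPM against 2122 to 2451, with 2 of 10 higher and 2 lower. Log2 fold changes ran from -2.04 to 2.26 in this list. Ly6g, the marker the sort excludes, had log2 values of 2.35, 1.96 and 2.45 against the WT mean in mTOR-/- replicates 1, 2 and 3. In WT it had -1.70, -0.21 and 0.87. Ltf went the other way, with -2.27, -2.32 and -1.64 in mTOR-/-. Macrophage markers were at 549 to 660 CPM against 660 to 739, with 1 of 5 tested higher. Their log2 fold changes ran from -0.35 to 9.90, the last for Clec4f, which had no counts in WT. Lymphoid markers were at 1.16 to 3.67 CPM against 1.49 to 1.91, with none of 1 tested passing and Cd3e and Ncr1 at 0. Erythroid markers were at 1.07 to 1.39 CPM against 2.99 to 6.13, and the 1 tested did not pass. The part of these shifts in the results below was not tested, and in bulk RNA fewer cells of a type cannot be told apart from less RNA per cell.

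The question of the comparison is how loss of mTOR changes gene expression in M-MDSCs. For the immediate early genes the answer was split. Ier2, Egr1, Jun and Zfp36 rose in mTOR-/- M-MDSCs by 1.36- to 1.75-fold, Atf3 fell, and Fos and Dusp1 were at nearly the same mean level in both groups. Junb, Fosb and Egr2 had higher means in mTOR-/- cells but did not pass the test. In counts, 4 of 10 members rose and 1 fell at an adjusted p below 0.05, where 2.18% of all tested genes rose and 1.87% fell. In 6 members every mTOR-/- library was above every WT library and in 1 every mTOR-/- library was below, against 14.5% and 13.9% of all tested genes. The median log2 fold change of the 10 members was 0.55, and that of all tested genes was 0.00. None of the members passed both an adjusted p below 0.05 and a fold of 2, in edgeR or in DESeq2, where edgeR gave that call to 1.69% of all tested genes. In edgeR 7 of the 10 members had an unadjusted p below 0.05, against 21.2% of all tested genes.

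**Figure D1:**
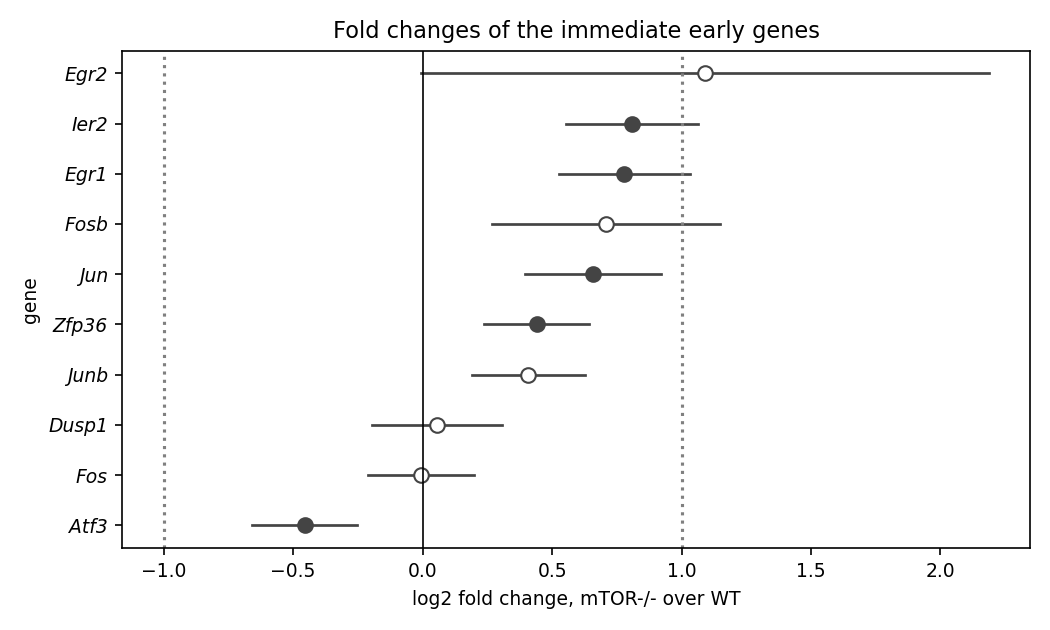
Log2 fold change of each immediate early gene in mTOR-/- over WT M-MDSCs (horizontal axis), with its 95% interval from edgeR. Filled points have an adjusted p below 0.05 and dotted lines mark a fold of 2. Ier2, Egr1, Jun and Zfp36 lie above 0 and Atf3 below, while the intervals of Egr2, Dusp1 and Fos reach across 0.

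Except for Egr2, the members are strongly expressed genes. Mean CPM of the 10 members ranked between the 65.0 percentile (Egr2) and the 99.3 percentile (Fos) of all tested genes. Their summed CPM was 0.341, 0.328 and 0.321% of the TMM-scaled library size on tested genes in WT replicates 1, 2 and 3. It was 0.412, 0.431 and 0.491% in mTOR-/- replicates 1, 2 and 3. On the authors' FPKM scale, which accounts for transcript length, Fos led in WT cells with 225 ± 11.3 FPKM (SD, n = 3), followed by Zfp36 with 216 ± 14.5, Ier2 with 184 ± 18.6, Junb with 182 ± 6.48, Jun with 98.2 ± 7.39, Egr1 with 80.9 ± 3.97, Atf3 with 64.1 ± 2.33, Dusp1 with 36.7 ± 1.49, Fosb with 28.9 ± 5.87 and Egr2 with 6.38 ± 3.01. In WT the libraries of Fos and Zfp36, of Zfp36 and Ier2, and of Ier2 and Junb overlapped, and the lower neighbours did not. In mTOR-/- cells the order changed at the top: Ier2 led with 326 ± 39.9 FPKM, then Zfp36 with 297 ± 14.8, Junb with 245 ± 25.5 and Fos with 227 ± 9.01. Jun was at 157 ± 22.9, Egr1 at 141 ± 19.3, Fosb at 47.9 ± 12.3, Atf3 at 47.4 ± 2.65, Dusp1 at 38.7 ± 5.74 and Egr2 at 13.8 ± 9.50 FPKM. In mTOR-/- the libraries of Ier2 and Zfp36 overlapped, as did those of Junb and Fos, of Jun and Egr1, of Fosb and Atf3, and of Atf3 and Dusp1.

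**Figure D2:**
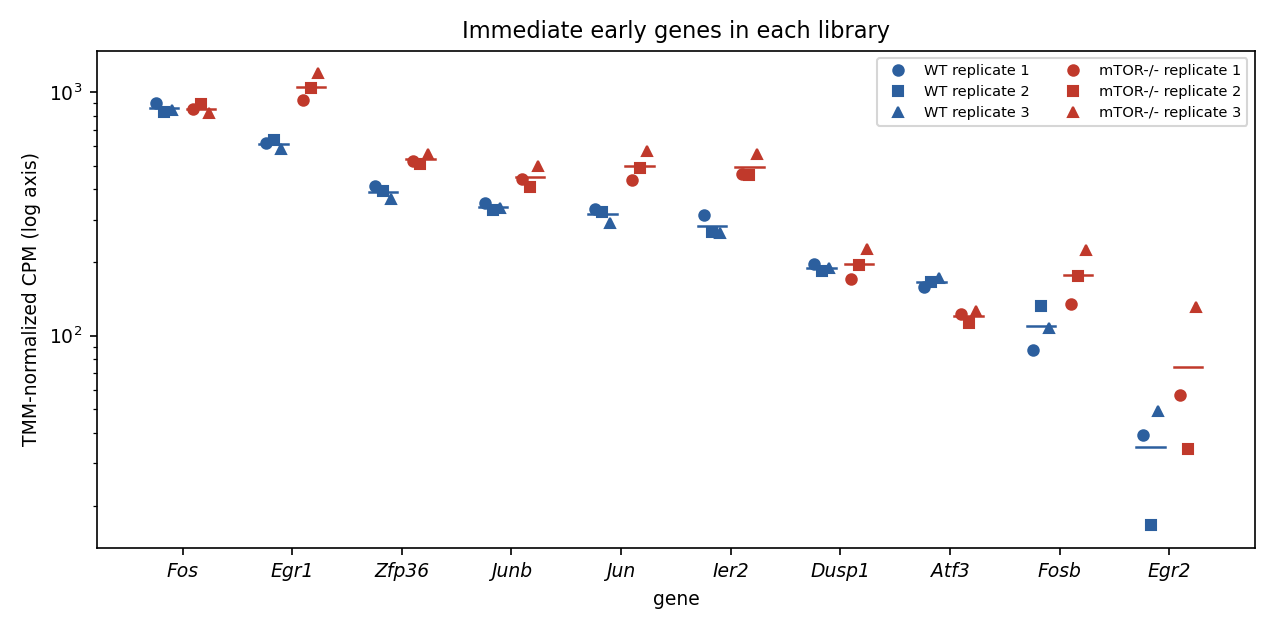
CPM of each immediate early gene (vertical axis, log scale) in the 3 WT and 3 mTOR-/- libraries. Each point is 1 library and each bar is the group mean. The groups are apart for Egr1, Ier2, Jun, Junb, Fosb and Zfp36 (mTOR-/- above) and for Atf3 (mTOR-/- below), and overlap for Fos, Egr2 and Dusp1.

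AP-1 is a dimer of a FOS protein with a JUN protein, and Fos and Fosb encode FOS partners. Fos (chromosome 12, 85473890 to 85477273, plus strand) had 851.6, 891.6 and 823.6 CPM in mTOR-/- replicates 1, 2 and 3 and 901.8, 829.7 and 846.7 CPM in WT replicates 1, 2 and 3. The groups overlapped, with the highest and the lowest library each only just outside the range of the other group. Its log2 fold change was -0.01 ± 0.09 (SE), with a 95% interval of -0.21 to 0.20 (edgeR adjusted p = 0.978), and its sign depended on the scaling. Fosb had 135.2, 175.9 and 223.9 CPM in mTOR-/- and 87.5, 132.5 and 107.6 CPM in WT. Every mTOR-/- library was above every WT library, but mTOR-/- replicate 1 and WT replicate 2 nearly touched. The log2 fold change of Fosb was 0.71 ± 0.20 (SE) and did not pass (edgeR adjusted p = 0.0820). DESeq2 gave Fosb an adjusted p of 0.00904, and without low-count filtering edgeR gave 0.0391.

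Jun and Junb encode JUN partners, and Jun passed the test while Junb did not. Jun (chromosome 4, 95049034 to 95052222, minus strand, a gene of 1 exon) had 435.1, 487.4 and 571.3 CPM in mTOR-/- and 332.2, 323.4 and 291.1 CPM in WT. The lowest mTOR-/- library was well above the highest WT library. Jun rose by 0.66 ± 0.12 (SE) on the log2 scale, or 1.58-fold (edgeR adjusted p = 0.0161). It was no longer called without WT replicate 1, 2 or 3 (adjusted p = 0.0637, 0.0656 and 0.0989), while the log2 fold change stayed between 0.54 and 0.74 whichever of the 6 libraries was omitted. The antisense gene Junos overlaps Jun and had 92 to 180 counts. The counting is not stated to use strand, so reads of the pair could have been mixed. Junb, which encodes a JUN protein that often tempers Jun, had 439.0, 409.9 and 497.6 CPM in mTOR-/- and 349.3, 329.8 and 336.0 CPM in WT. Here too the groups did not overlap. The log2 fold change of Junb was 0.41 ± 0.10 (SE), with edgeR adjusted p = 0.0518, and over the 14 alternatives that p ran from 0.0053 to 0.218. The remaining FOS and JUN genes are no members and were chosen after their values were seen. Jund had 158, 162 and 163 CPM in mTOR-/- and 182, 156 and 189 in WT, so the groups overlapped (log2 fold change -0.13, edgeR adjusted p = 0.485). Fosl2 had 178, 172 and 179 CPM in mTOR-/- and 117, 152 and 128 in WT, without overlap, and did not pass (log2 fold change 0.41, adjusted p = 0.0708). Fosl1 was low in both groups and did not pass (log2 fold change -0.03, adjusted p = 0.976).

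Atf3 was the only member that fell. It encodes a stress-induced factor that can pair with JUN proteins and represses many inflammatory genes. Atf3 (chromosome 1, 191170296 to 191218039, minus strand) had 122.7, 113.3 and 126.1 CPM in mTOR-/- and 158.0, 166.3 and 172.4 CPM in WT. All 3 mTOR-/- libraries were lower than all 3 WT libraries, and the spread within each group was small. Its log2 fold change was -0.46 ± 0.09 (SE), with WT 1.37-fold above mTOR-/- (edgeR adjusted p = 0.0257). Without 1 library Atf3 kept its call only when mTOR-/- replicate 3 was left out (adjusted p = 0.0215). Without mTOR-/- replicate 1 or 2 the adjusted p was 0.0704 and 0.0503, and without WT replicate 1, 2 or 3 it was 0.0771, 0.0950 and 0.139.

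Of the EGR zinc finger factors, which bind GC-rich sites, Egr1 rose and Egr2 varied widely. Egr1, a first responder to growth factors that is also linked to monocyte differentiation, had 925.1, 1038.1 and 1195.2 CPM in mTOR-/- and 620.3, 636.4 and 583.2 CPM in WT. The group means were 1053 ± 136 and 613 ± 27.3 CPM (SD, n = 3 each), with a wide gap between the groups. The log2 fold change of Egr1 was 0.78 ± 0.11 (SE), or 1.72-fold (edgeR adjusted p = 0.00651). It was lost when WT replicate 3 was left out (adjusted p = 0.0526). Egr2, which acts in macrophage and lymphocyte differentiation, had 57.1, 34.3 and 131.2 CPM in mTOR-/- and 39.0, 16.7 and 49.1 CPM in WT. Replicate 3 of mTOR-/- was far above the others and mTOR-/- replicate 2 was below 2 of the WT libraries. Its log2 fold change of 1.09 ± 0.49 (SE) was the only one of the members beyond a fold of 2, and it did not pass (edgeR adjusted p = 0.238). It was 0.38 without mTOR-/- replicate 3 and 1.42 without mTOR-/- replicate 2.

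Ier2, a small nuclear protein gene of 1 exon (chromosome 8, 84661331 to 84662852, minus strand), gave the firmest result. It had 461.6, 458.9 and 559.0 CPM in mTOR-/- and 312.1, 267.6 and 265.0 CPM in WT. Even the lowest mTOR-/- library was above all WT libraries. Ier2 rose by 0.81 ± 0.11 (SE) on the log2 scale, or 1.75-fold (edgeR adjusted p = 0.00548). It was the only member still called whichever of the 6 libraries was omitted, with adjusted p from 0.00633 to 0.0428.

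The feedback genes differed from each other. Zfp36 (chromosome 7, 28376784 to 28379255, minus strand) had 522.7, 509.5 and 555.6 CPM in mTOR-/- and 412.2, 392.3 and 365.7 CPM in WT. The 3 mTOR-/- libraries were close together and all above WT. Zfp36 rose by 0.44 ± 0.09 (SE) on the log2 scale, or 1.36-fold (edgeR adjusted p = 0.0300). The call was lost without mTOR-/- replicate 1 (adjusted p = 0.0770) and without WT replicate 1, 2 or 3 (0.0956, 0.109 and 0.175). An antisense gene, Gm44710, overlaps Zfp36, and Gm24748 lies within Atf3. Dusp1 had 171.2, 195.0 and 226.4 CPM in mTOR-/- and 197.1, 183.9 and 189.1 CPM in WT. The WT libraries fell inside the mTOR-/- range. Its log2 fold change was 0.06 ± 0.11 (SE), with a 95% interval of -0.19 to 0.31 (edgeR adjusted p = 0.815), and it turned to -0.06 without mTOR-/- replicate 3.

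Raw counts of the other members relative to Fos in the same library need no scaling between libraries. Since Fos was at nearly the same level in both groups, these ratios largely repeat the CPM differences above and are no separate evidence. Egr1 counts were 1.09, 1.16 and 1.45 times those of Fos in mTOR-/- replicates 1, 2 and 3 and 0.688, 0.767 and 0.689 times in WT. The ratio of Jun to Fos was 0.511, 0.547 and 0.694 against 0.368, 0.390 and 0.344, and that of Ier2 to Fos was 0.542, 0.515 and 0.679 against 0.346, 0.323 and 0.313. Egr1 had more counts than Fos in every mTOR-/- library and fewer in every WT library. The ratio of Atf3 to Fos was lower, at 0.144, 0.127 and 0.153 against 0.175, 0.200 and 0.204. Zfp36 over Fos was 0.614, 0.571 and 0.675 against 0.457, 0.473 and 0.432, and Junb over Fos was 0.516, 0.460 and 0.604 against 0.387, 0.397 and 0.397. Neither pair overlapped. Ratios of Dusp1, Egr2 and Fosb to Fos overlapped between the groups, that of Fosb narrowly, with 0.159 in mTOR-/- replicate 1 and 0.160 in WT replicate 2, although the CPM of Fosb did not overlap. Egr1 over Atf3 set a member that rose against the member that fell, with 7.54, 9.16 and 9.47 in mTOR-/- and 3.93, 3.83 and 3.38 in WT. Since neither gene overlapped between the groups, this ratio had to separate them and adds no new evidence.

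**Figure D3:**
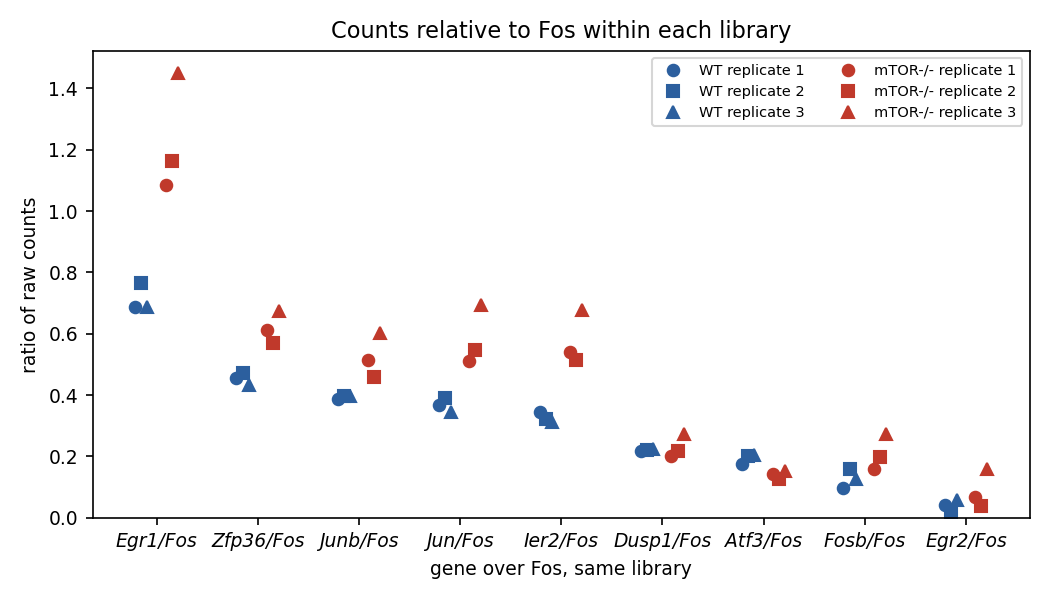
Raw counts of the other 9 immediate early genes divided by the Fos count of the same library (vertical axis, from 0). Each symbol is 1 library. Egr1, Jun, Ier2, Zfp36 and Junb ratios are higher in all mTOR-/- libraries, Atf3 ratios are lower, and Dusp1, Egr2 and Fosb ratios overlap.

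Within the mTOR-/- group, replicate 3 had the highest CPM of 9 of the 10 members, Fos being the exception. Over all tested genes it was the highest of the 3 libraries in 39.0%. Within WT, replicate 1 was the highest in 6 members, against 33.6% of all tested genes. Replicate 3 of mTOR-/- also had the fewest detected genes, 13889 against 14709 to 15120 in the other 5 libraries. Leaving it out lowered the log2 fold changes of Egr1 to 0.67, of Jun to 0.54 and of Ier2 to 0.70, and all 3 kept their calls (edgeR adjusted p = 0.00553, 0.0182 and 0.00633).

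**Figure D4:**
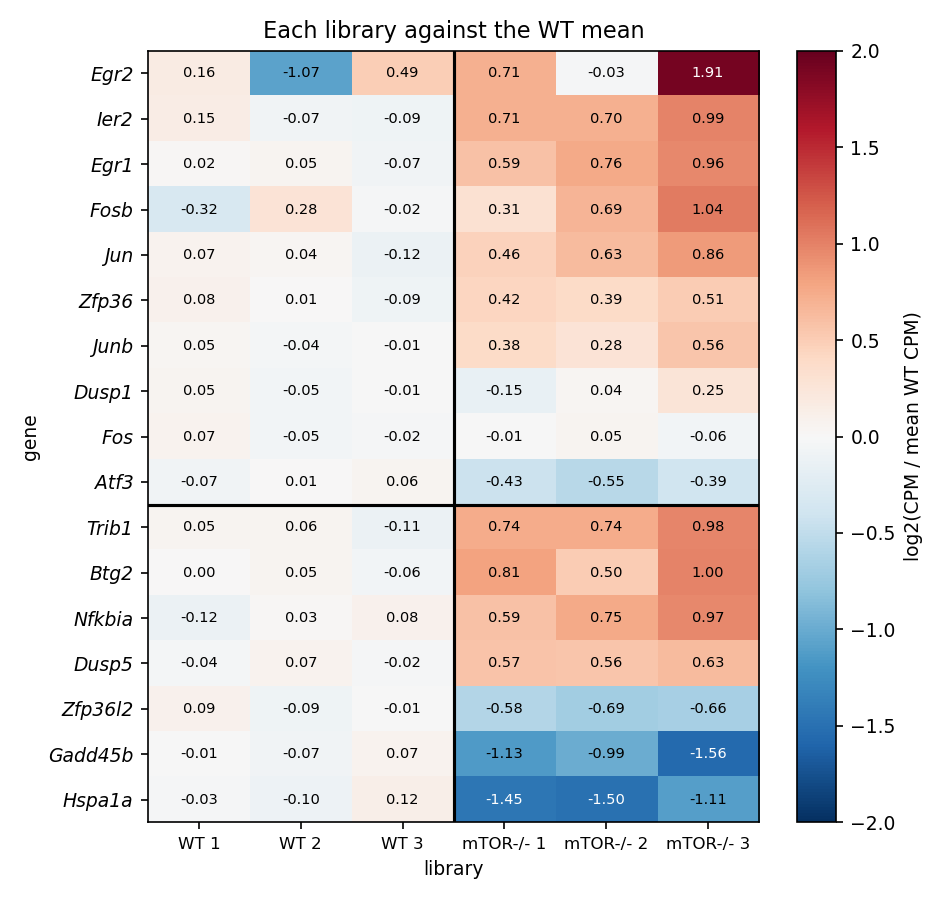
Log2 of CPM over the WT mean CPM (colour) for each immediate early gene and 7 related genes (rows, members above the line) in the 6 libraries (columns). Egr1, Ier2 and Jun are raised in all 3 mTOR-/- libraries, Atf3 is lowered in all 3, and Egr2 is highest in mTOR-/- replicate 3.

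The window of 250 bases before the annotated start was read for 8 members from RefSeq (GRCm38.p6). The windows of 4 of them that hold matches to the searched motifs are shown, with motifs in capitals. The window of Jun, which rose, held no match. Zfp36 holds a CArG box 58 bases and an EGR site (GCGNGGGCG) 105 bases before its start, Fos holds the CRE core TGACG at 129 and 66 and TATAAA at 33, Fosb holds the CRE core at 60 and an EGR site at 50, and Dusp1 holds a full CRE (TGACGTCA) at 143 and a CRE core at 191. Positions give the first base of the match, counted from the RefSeq start. The study's gene table places the starts of Zfp36 at 28379255 and of Dusp1 at 26508519, inside these windows, so distances from those starts differ. It places the starts of Atf3 at 191218039 and of Egr2 at 67535475. The Atf3 window (191183334 to 191183583) and the Egr2 windows with matches lie downstream of those starts, inside the genes.
Zfp36, chr7:28379229-28379478, minus strand: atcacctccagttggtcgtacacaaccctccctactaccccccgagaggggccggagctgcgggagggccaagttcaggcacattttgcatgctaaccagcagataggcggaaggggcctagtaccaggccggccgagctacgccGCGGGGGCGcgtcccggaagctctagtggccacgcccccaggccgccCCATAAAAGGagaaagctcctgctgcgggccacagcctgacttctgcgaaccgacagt
Fos, chr12:85473640-85473889, plus strand: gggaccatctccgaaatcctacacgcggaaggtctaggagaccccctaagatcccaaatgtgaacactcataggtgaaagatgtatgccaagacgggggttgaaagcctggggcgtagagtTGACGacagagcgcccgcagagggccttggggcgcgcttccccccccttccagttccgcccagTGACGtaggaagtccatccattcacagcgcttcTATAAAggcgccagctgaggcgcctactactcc
Fosb, chr7:19310046-19310295, minus strand: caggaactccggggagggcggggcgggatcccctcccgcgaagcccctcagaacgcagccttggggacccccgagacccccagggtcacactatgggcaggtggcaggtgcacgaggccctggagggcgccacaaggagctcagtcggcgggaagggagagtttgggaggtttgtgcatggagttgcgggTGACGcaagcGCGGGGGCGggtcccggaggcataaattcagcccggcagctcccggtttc
Dusp1, chr17:26508473-26508722, minus strand: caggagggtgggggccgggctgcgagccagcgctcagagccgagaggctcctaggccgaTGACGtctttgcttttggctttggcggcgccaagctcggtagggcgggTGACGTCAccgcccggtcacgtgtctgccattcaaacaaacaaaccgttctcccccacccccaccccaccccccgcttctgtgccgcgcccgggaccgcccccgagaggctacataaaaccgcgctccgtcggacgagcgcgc
Both strands were searched and a full CRE contains the core. Egr2 has 5 windows and is counted where any of them holds the motif. The CRE core was found for 6 of the 8 members (Atf3, Dusp1, Egr2, Fos, Fosb and Junb) and in 17.8% of all 32851 RefSeq windows. Members are counted by gene and the background by window, so a member with several windows, as Egr2, has more room for a match. The full CRE was in 1 and in 1.55%, the CArG box in 2 (Egr2 and Zfp36) and in 1.47%, the EGR site in 2 (Fosb and Zfp36) and in 4.70%, and TATAAA in 1 and in 12.4%. The AP-1 site TGANTCA was in none of the 8 and in 6.75%. A match is a stretch of letters and not a measured binding site. Sequence outside the 250 bases was not searched, so a member without a match may hold the motif elsewhere. Of the members that rose, only the windows of Jun and Zfp36 were read, and neither holds the CRE core.

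Zfp36 protein prefers the heptamer UAUUUAU, written TATTTAT in DNA letters. It was found in the 3′ UTR of 6 of the 10 members (GENCODE transcripts on GRCm38), against 27.5% of 11583 tested genes with a 3′ UTR, at 1.05 against 0.293 sites per kilobase. The median 3′ UTR length was 1000.5 bases in the members and 955 in all. Zfp36 and Dusp1 had 3 sites each, Fos 2, and Fosb, Atf3 and Jun 1 each. Egr1, Egr2, Junb and Ier2 had none. For 4 members 1 site each is shown with the heptamer in capitals, to show that a gene that rose (Jun), genes that did not pass (Fos and Dusp1) and Zfp36 itself carry it.
Zfp36, chr7:28376969-28376991, minus strand: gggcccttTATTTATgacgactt
Jun, chr4:95049082-95049104, minus strand: cttgtgcaTATTTATaatagcgt
Fos, chr12:85477106-85477128, plus strand: tttcaattTATTTATtaagatgg
Dusp1, chr17:26506162-26506184, minus strand: ctggtcctTATTTATttaacacc
Of the members that rose, Zfp36 and Jun carried the heptamer and Egr1 and Ier2 did not, and Atf3, which fell, carried 1.

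A list of 45 other immediate early genes moved both ways. Of the 43 tested, 6 rose and 3 fell in edgeR, against 2.18% and 1.87% of all tested genes. Every mTOR-/- library was above every WT library in 11 and below in 9, against 14.5% and 13.9% of all tested genes. The median log2 fold change of the list was 0.05, with a range of -1.21 to 1.35. Nfkbia, the inhibitor of NF-kB, had 231, 258 and 299 CPM in mTOR-/- and 141, 156 and 162 in WT, and rose by 0.78 on the log2 scale (edgeR adjusted p = 0.00692). Trib1, a pseudokinase that directs C/EBP-alpha to degradation, rose by 0.82 (adjusted p = 0.00910), the antiproliferative gene Btg2 by 0.78 (0.0106) and the ERK phosphatase gene Dusp5 by 0.59 (0.0150). Gadd45b, a stress gene that acts on MAP kinase signalling, went the other way with 47.3, 52.1 and 35.3 CPM in mTOR-/- and 103, 98.6 and 109 in WT, and fell by 1.21 on the log2 scale (adjusted p = 0.00287). Gadd45b, Nfkbia and Zfp36l2 kept their calls whichever of the 6 libraries was omitted. Trib1 lost its call without WT replicate 3 (adjusted p = 0.0577). Btg2 lost its call without WT replicate 1, 2 or 3 (0.0542, 0.0502 and 0.0637), and so did Dusp5 (0.0835, 0.0567 and 0.0889). In this list mTOR-/- replicate 3 was the highest of its group in 24 of 43 genes.

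The relatives of Zfp36 went in opposite directions. Zfp36l2 had 220, 204 and 208 CPM in mTOR-/- and 350, 309 and 328 in WT and fell by 0.64 on the log2 scale (edgeR adjusted p = 0.00504). Counts of Zfp36 over Zfp36l2 were 2.38, 2.49 and 2.68 in mTOR-/- and 1.18, 1.27 and 1.12 in WT. Since Zfp36 was higher and Zfp36l2 lower in every mTOR-/- library, this ratio had to separate the groups. Zfp36l1 rose by 0.61 on the log2 scale (adjusted p = 0.0161). Zfp36l1, Nfkbiz and Dusp4, the other genes of the list that passed, were chosen after their values were seen. Nfkbiz rose by 0.77 (adjusted p = 0.0270) and Dusp4 fell by 0.76 (adjusted p = 0.0496). Zfp36l1 lost its call without mTOR-/- replicate 1 (adjusted p = 0.0627) and without WT replicate 1, 2 or 3 (0.0926, 0.0696 and 0.0605). Nfkbiz kept its call only without WT replicate 2 (0.0297) and Dusp4 only without mTOR-/- replicate 3 (0.0212), with adjusted p up to 0.111 and 0.173 without another library.

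Transcripts known as targets of Zfp36 moved both ways. Of 21 listed, 17 were tested. Of these, 2 rose and 3 fell in edgeR, against 2.18% and 1.87% of all tested genes. Every mTOR-/- library was above every WT library in 3 and below in 5, against 14.5% and 13.9% of all tested genes. The median log2 fold change of the 17 was 0.06. Il1b, an inflammatory cytokine, had 14.0, 18.5 and 10.6 CPM in mTOR-/- and 5.12, 7.10 and 5.41 in WT and rose by 1.29 on the log2 scale (edgeR adjusted p = 0.0290). Ptgs2, the inducible cyclooxygenase, rose by 0.56 (adjusted p = 0.0464). The monocyte-attracting chemokines Ccl2, Ccl4 and Ccl7 fell by 1.62, 0.72 and 3.21 (adjusted p = 0.0176, 0.0324 and 0.0399), and Ccl7 had only 2, 1 and 5 counts in mTOR-/-. All 5 lost their calls without WT replicate 1, 2 or 3, with adjusted p from 0.0582 (Ccl2, without WT replicate 2) to 0.200 (Ptgs2, without WT replicate 3). Il10 was at 0 in every library.

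Of 29 kinases and factors upstream of the immediate early genes, 0 passed in edgeR, and 1 passed in DESeq2. An unadjusted p below 0.05 was found for 5 of the 29 in edgeR, no larger a share than the 21.2% of all tested genes. Their median log2 fold change was -0.01, with a range of -0.54 to 0.49. Mapkapk3, a kinase activated by p38, is among the most abundant of the list and had a log2 fold change of 0.26 (edgeR adjusted p = 0.114).

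Heat shock chaperones are also induced by cell stress. Of 14 tested, 0 rose and 1 fell in edgeR, against 2.18% and 1.87% of all tested genes. The median log2 fold change was -0.19, with 11 below 0 and 3 above. Every mTOR-/- library was above every WT library in 0 and below in 5, against 14.5% and 13.9% of all tested genes. An unadjusted p below 0.05 in edgeR was found for 4 of the 14, against 21.2% of all tested genes. Hspa1a, an inducible HSP70, had 9.86, 9.50 and 12.5 CPM in mTOR-/- and 26.3, 25.1 and 29.2 in WT and fell by 1.34 on the log2 scale (edgeR adjusted p = 0.00342). Its near-identical copy Hspa1b may share its reads. The abundant chaperones Hspa5 and Hsp90ab1 had log2 fold changes of 0.22 (adjusted p = 0.702) and -0.19 (adjusted p = 0.359).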

How the data were processed

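RNA-seq was performed on 3 WT and 3 mTOR-/- M-MDSC libraries, grouped by their labels. According to the study's methods the authors aligned reads with Bowtie2 to mm10 and counted genes with HTSeq. The submitters' processing notes instead name HISAT2 2.0.4, StringTie 1.3.0 and the builds GRCm38.p4 and mm9, without roles. The strand setting is not given in the sources used here. The authors deposited raw counts per gene and FPKM for each library, and also their own fold changes, p-values and q-values, which were not used. The other deposited tables hold 24 per-sample columns, which were not used.

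Counts were tested with edgeR 4.0.16 in R 4.3.3 (filterByExpr with a minimum count of 10, TMM, quasi-likelihood F test, Benjamini-Hochberg over 12537 genes, threshold 0.05), after the step was tested on simulated data. The common biological coefficient of variation was 19.0%, and library totals were 12317507 to 14768126. The members and related lists were chosen with earlier results of these data known. Named were all members, the listed genes with adjusted p below 0.05 (the 6 smallest p of a list, or its 2 most abundant genes where fewer than 2 passed), Mtor and Lyz2. A gene that this rule names is not reported here. Alternatives were DESeq2 1.42.0, other scalings and filters, limma 3.58.1 on log2(FPKM + 1), a replicate block and leaving out each library. No pairing of the libraries by replicate number was seen.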

Additional observations from a re-analysis of the deposited data

How the results depend on the processing

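Ier2, Gadd45b, Zfp36l2, Nfkbia, Hspa1a and Lyz2 kept their direction and call under all 14 alternatives. The number of members with adjusted p below 0.05 was 5 in edgeR, 7 in DESeq2 and 1 to 5 with any single library omitted. The same omissions gave 173 to 513 for all genes, 114 to 229 for all genes also past a fold of 2 (212 with every library), 3 to 8 for other immediate early genes, 0 to 1 for upstream kinases and factors, 0 to 3 for Zfp36 targets and 1 to 2 for heat shock chaperones. DESeq2 called 1144 of all genes against 507 in edgeR, and 357 with a fold of 2. limma on log2(FPKM + 1) called 125 with that fold. In the upstream list 1 gene passed in DESeq2 and 1 without low-count filtering. In the heat shock list 2 passed in DESeq2, with upper-quartile factors, without low-count filtering and with at least 10 counts in every library. The log2 fold change of Fos was -0.047 to 0.021 with a library omitted, and 0.013 both with library totals only and with limma on FPKM. Under the omissions Dusp1 ran from -0.059 to 0.15 and Hspa5 from -0.022 to 0.59. The cause was not tested.

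Same-numbered libraries did not deviate together (correlations of -0.076, -0.025 and -0.061), so no pairing by number was seen. With so few libraries this cannot tell whether same-numbered samples were prepared together. With a replicate block 279 of all genes and 4 members passed (Egr1, Ier2, Fosb and Egr2), 1 member with a fold of 2 (Egr2), 5 other immediate early genes and 2 Zfp36 targets. With 3 libraries a group, an exact permutation test of 1 gene cannot go below p = 0.1.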
